A study of Homo sapiens with 18 samples.

Results

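Genes that cut proteins into peptides and load them onto MHC class I molecules were followed in 3 human cancer cell lines in which doxycycline switches on a short hairpin RNA that targets MUC1, a transmembrane mucin. The set holds the catalytic subunits of the immunoproteasome (PSMB8, PSMB9, PSMB10), the PA28 activator (PSME1, PSME2), the peptide transporter and its loading factor (TAP1, TAP2, TAPBP), a trimming peptidase (ERAP1) and the transactivator of class I genes (NLRC5). The 10 genes were chosen by symbol, and all 10 were listed in each of the authors' 3 tables, which hold 26992 gene names together. The lines came from colon cancer (RKO, COLO 201) and lung cancer (H1975). Every sample carried tet-MUC1shRNA and puromycin resistance, so both arms share the hairpin construct and differ in its induction. The first arm received 500 ng/ml doxycycline and the other arm 0.1% DMSO, the vehicle, in medium with 10% serum. There were 3 columns per arm and line, 18 in all. No column with a control hairpin was analysed here, so effects of MUC1 loss, of other targets of the hairpin and of doxycycline itself cannot be told apart.

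The constitutive proteasome cuts with the subunits PSMB5, PSMB6 and PSMB7. Interferon and inflammatory signals place PSMB8, PSMB9 and PSMB10 in these positions and raise PA28, a ring that opens the proteasome, and the resulting peptides favour class I binding. TAP1 and TAP2 form the pump that carries peptides into the endoplasmic reticulum, TAPBP (tapasin) bridges the pump to empty class I molecules, and ERAP1 trims peptides there. In tumour cells the amount of this machinery is a determinant of which peptides cytotoxic T cells can see.

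Many promoters of this pathway carry a sequence through which interferon-activated factors are known to act, and it is shown here because 8 of the 10 members share it apart from the rule that chose them. The interferon-stimulated response element core was searched on both strands as GAAA, 2 bases of any kind and GAAA again, in windows of 300 bases running from upstream of each RefSeq transcription start to just past it (GRCh38.p14). It was found in 8 of the 9 members with a window and in 8 of their 12 windows, against 3.57% of all 35116 windows and 4.38% of the 27305 genes with one. The matched letters stand in capitals, on the strand of the gene, with 10 bases on each side. TAP1 and TAPBP each hold a second match that overlaps the first and is in lower case here.
TAP1, chr6:32853819-32853848, minus strand: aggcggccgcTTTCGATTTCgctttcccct
TAP2, chr6:32838778-32838807, minus strand: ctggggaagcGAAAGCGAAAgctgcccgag
TAPBP, chr6:33314079-33314108, minus strand: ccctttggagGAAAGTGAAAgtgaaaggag
PSMB8, chr6:32844032-32844061, minus strand: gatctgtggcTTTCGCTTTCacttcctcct
PSMB10, chr16:67936852-67936881, minus strand: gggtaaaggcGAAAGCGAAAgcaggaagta
PSME1, chr14:24136189-24136218, plus strand: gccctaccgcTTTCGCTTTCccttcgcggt
PSME2, chr14:24146619-24146648, minus strand: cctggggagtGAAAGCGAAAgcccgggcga
ERAP1, chr5:96807924-96807953, minus strand: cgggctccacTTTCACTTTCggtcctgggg

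PSMB9 was the member without a match. It starts 488 bases from TAP1 on the opposite strand, so the space between them serves both genes, and the windows share 13 bases. The matches of TAP1 end 354 and 360 bases upstream of the annotated start of PSMB9, outside the window of PSMB9. Both windows are given whole, because PSMB9 and TAP1 were the members with the largest increases in COLO 201. Capitals mark the interferon-stimulated response element core, here 2 overlapping matches, and the NF-kB-type motif (GGG, 2 bases of any kind, then TTTCC), both found in the TAP1 window.
TAP1, chr6:32853655-32853954, minus strand: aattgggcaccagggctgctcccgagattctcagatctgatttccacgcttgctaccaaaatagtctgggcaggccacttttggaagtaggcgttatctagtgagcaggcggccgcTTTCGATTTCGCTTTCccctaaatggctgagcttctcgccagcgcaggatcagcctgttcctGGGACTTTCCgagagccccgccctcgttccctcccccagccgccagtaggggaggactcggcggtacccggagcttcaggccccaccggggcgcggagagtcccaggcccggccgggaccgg
PSMB9, chr6:32853942-32854241, plus strand: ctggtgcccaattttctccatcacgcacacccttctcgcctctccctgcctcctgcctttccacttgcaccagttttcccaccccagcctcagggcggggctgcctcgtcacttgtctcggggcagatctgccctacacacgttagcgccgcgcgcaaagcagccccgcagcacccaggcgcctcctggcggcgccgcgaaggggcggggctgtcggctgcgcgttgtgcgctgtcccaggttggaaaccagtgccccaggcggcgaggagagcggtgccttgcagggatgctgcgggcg

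The NF-kB-type motif, searched on both strands, was in windows of 2 of the 9 genes, TAP1 and TAPBP, against 2.33% of all genes with a window. The STAT-type motif TTCNNNGAA, which reads the same on both strands, was in windows of 2 genes, TAP1 and PSMB8, against 9.38% of all genes with a window. In TAP1 it lay in the window of the more downstream start, not in the one printed. No overlap between motifs occurred in these windows. NLRC5 is named only. Among the constitutive counterparts, the windows of PSMB5, PSME3 and PSME4 held no interferon-stimulated response element core, while the STAT-type motif was in those of PSMB5 and PSME3. These are letter matches in fixed windows, and binding was not measured.

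**Figure D1:**
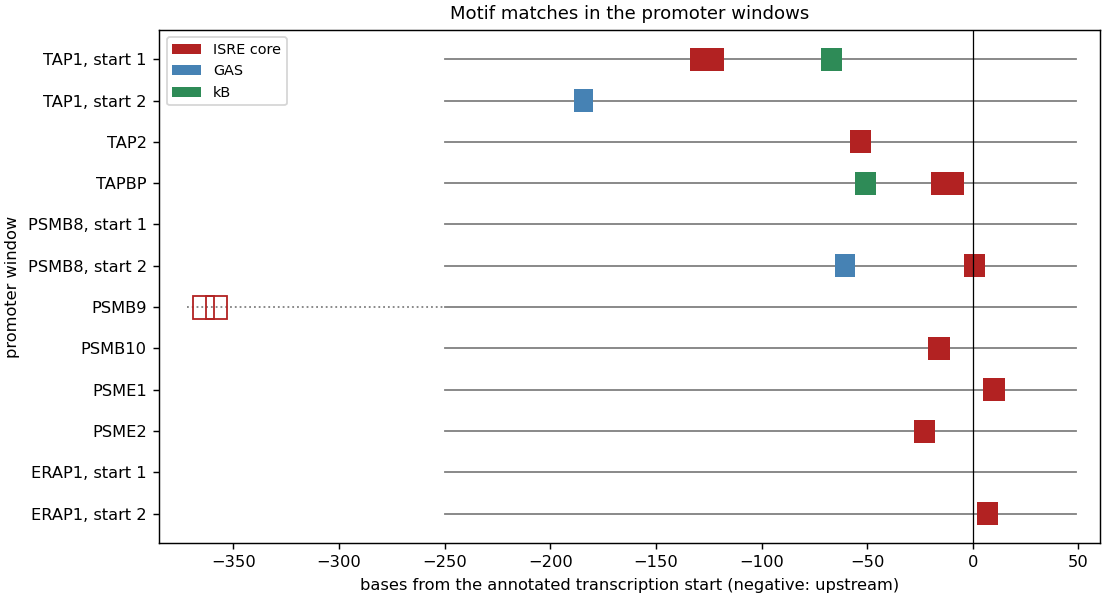
Matches to 3 motifs in the 12 promoter windows of 9 members, plotted as bases from the annotated transcription start (0, vertical line), with grey lines for the windows. Red marks the interferon-stimulated response element core (ISRE), blue the STAT-type motif (GAS) and green the NF-kB-type motif (kB). Open boxes are the TAP1 matches seen from the PSMB9 start. Start 1 is the more upstream of 2 annotated starts, and 8 windows hold a red box.

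MUC1 served as the check of the column headings. In RKO it stood at 0.108, 0.105 and 0.204 TPM (a level per transcript length in which every column adds up to 1000000) with doxycycline and at 15.2, 1.24 and 1.03 TPM with vehicle. It averaged 1.78 ± 0.25 TPM against 13.9 ± 0.94 TPM in COLO 201 and 8.01 ± 1.35 TPM against 97.5 ± 9.98 TPM in H1975, doxycycline against vehicle (SD, n = 3 each). The RKO vehicle columns are headed DOX with no sign, so that arm was inferred from the protocol. Vehicle column 1 of RKO stood apart. Its 10 fibroblast and endothelial markers summed to 184 TPM, against at most 0.0231 TPM with doxycycline and 0.00909 TPM in the lowest vehicle column. Its 9 mesenchymal genes summed to 1458 TPM, against 267 to 378 TPM with doxycycline and 431 TPM in the lowest vehicle column. VIM was 361 TPM in vehicle column 1 and 2.46 and 2.26 TPM in vehicle columns 2 and 3, and CAV1 was 111 TPM against 5.69 and 4.85 TPM. Members, their counterparts and list counts in RKO are therefore given with and without vehicle column 1. Small noncoding RNA took 71.4% to 79.0% of TPM with doxycycline and 68.0% to 72.1% with vehicle in RKO, and the median change of all tested genes was -0.26 on the log2 scale there, 0.12 in COLO 201 and 0.06 in H1975. Values are therefore also given after rescaling each column by its median ratio to the other columns, which brings the median change to -0.0045 in RKO, -0.0067 in COLO 201 and 0.020 in H1975. PTPRC, the defining leukocyte gene, was at most 0.0672 TPM in every column. CD68, a lysosomal protein listed among the leukocyte markers but also made by epithelial cells, was 392 to 489 TPM with doxycycline and 121 to 262 TPM with vehicle in RKO. RKO had no KRT20 or VIL1 in any column, little EPCAM (2.09 to 6.82 TPM) and CDX2 at 1.18 to 2.96 TPM. The colon markers of COLO 201 were mixed. VIL1 was 90.7 to 119 TPM and KRT20 13.4 to 21.1 TPM there, while CDX2 was at most 1.02 TPM and CDH17 at most 2.51 TPM. NKX2-1 was 15.1 to 25.6 TPM in H1975. In bulk RNA, fewer cells expressing a gene and less RNA per cell cannot be told apart.

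The 3 lines differed in how much of the machinery they expressed, and levels are set side by side without a test because the tables were normalised separately. In RKO 6 of the 10 members averaged under 5 TPM in both arms, and PSMB9 averaged 0.647 TPM with doxycycline and 0.621 TPM with vehicle. In COLO 201 NLRC5 was the member under 5 TPM, at 2.56 TPM with doxycycline and 2.13 TPM with vehicle. In H1975 no member was under 5 TPM in any column. PSME1 had the highest mean in every line and arm, with columns that overlapped those of PSME2 in RKO with doxycycline. PSME2 came next except in H1975 with doxycycline, where PSMB8 (122 TPM) passed PSME2 (111 TPM). In both arms of H1975 no neighbours in the order overlapped. In COLO 201 only PSMB8 and PSMB10 overlapped with vehicle, and PSMB10 and PSMB9 with doxycycline. In RKO the lowest genes ran together, and with doxycycline PSMB8, ERAP1, TAP2 and TAP1 each overlapped with the next, the last of them with NLRC5, while PSMB9 stood below all.

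**Figure D2:**
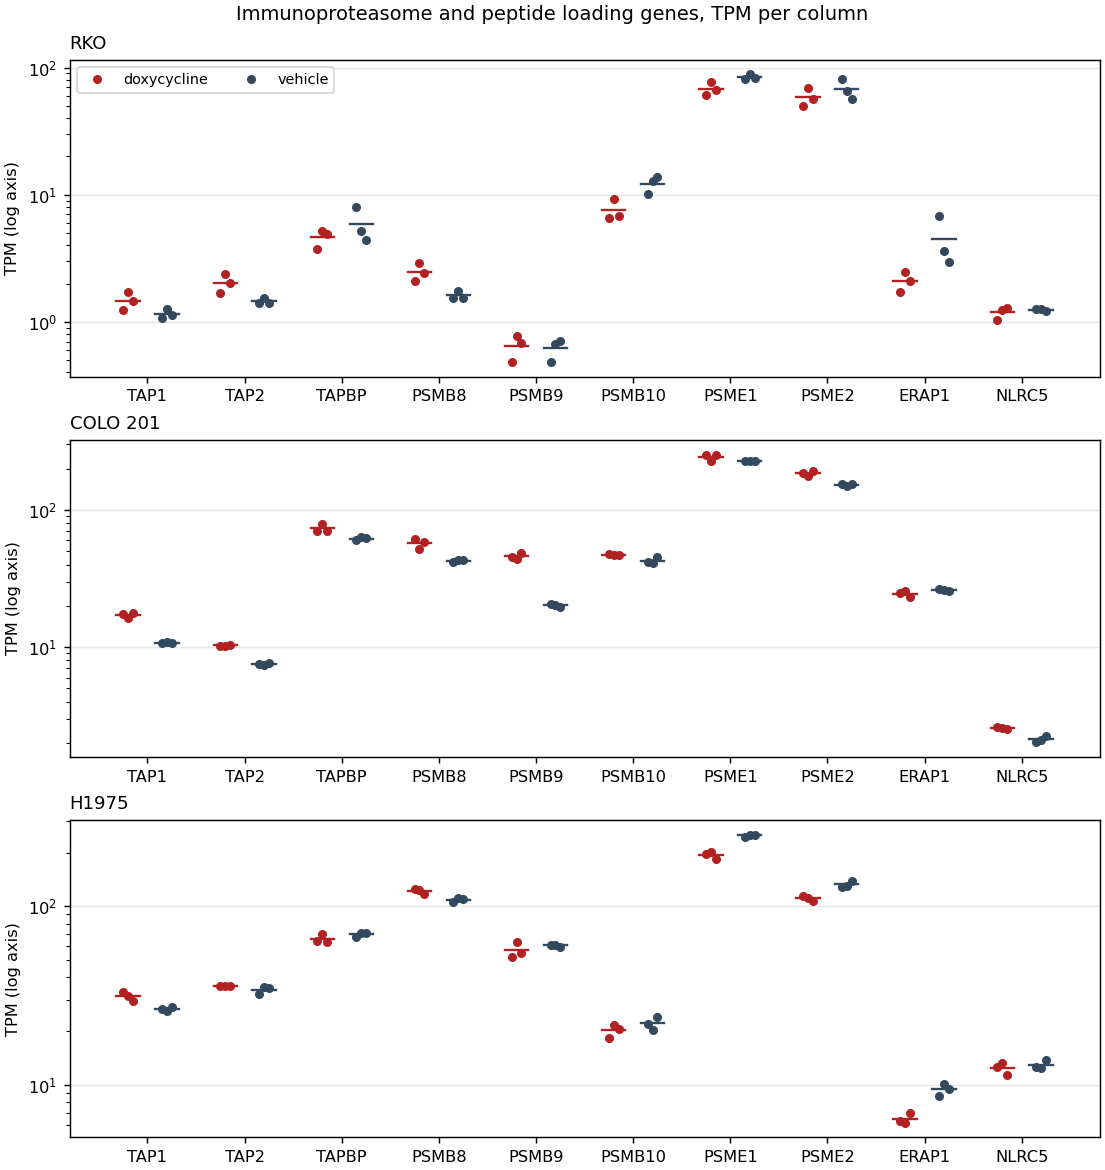
TPM (log axis) of the 10 genes in each of the 18 columns, doxycycline left in red and vehicle right in dark blue, 1 panel per line, with bars at the arm means. PSMB9 in COLO 201 shows the clearest gap, 43.8 to 48.6 TPM with doxycycline and 19.7 to 20.8 TPM with vehicle, while its arms overlap in RKO and H1975.

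The members were then compared between arms within each line. A call is an adjusted p under 0.05 from limma, with Benjamini-Hochberg adjustment over all genes tested in the line. In COLO 201, 8 of 10 members were higher and 0 lower, where 45.9% of the 11566 tested genes were higher and 15.0% lower. In H1975, 1 member was higher and 3 were lower, against 23.9% and 14.6% of 12359 genes. In RKO, 0 of the 9 tested members were higher and 2 were lower, against 2.09% and 16.1% of 10551 genes. At an unadjusted p under 0.05 the same 2 RKO members passed, beside 3608 of the 10551 genes in either direction. The median change of the members was 0.26 in COLO 201, -0.09 in H1975 and -0.20 in RKO, beside the medians of all genes given above. After rescaling, COLO 201 had 5 higher and 1 lower, against 27.3% and 29.7% of genes, H1975 kept 1 and 3, against 21.2% and 18.5%, and RKO had 3 higher and 0 lower, against 13.8% and 14.0%. With vehicle column 1 also left out, RKO had 5 higher and 2 lower, against 29.1% and 29.8%. Removing small noncoding RNA genes gave 3 higher and 0 lower in RKO, against 10.4% and 12.8%, and removing mitochondrially encoded genes gave 6 higher and 1 lower in COLO 201, against 34.9% and 20.1%, and 1 higher and 3 lower in H1975, against 17.8% and 19.2%. Without vehicle column 1 and with no rescaling, RKO had 0 higher and 2 lower, against 2.10% and 18.2%. The arms did not overlap for 8 higher members and 1 lower member in COLO 201, against 48.5% and 16.6% of genes. The same counts were 3 and 3 in H1975, against 30.7% and 18.4%, and 2 and 3 in RKO, against 3.90% and 32.4%. PSMB9 was below the minimum mean of 1 TPM in RKO and was not tested there.

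**Figure D3:**
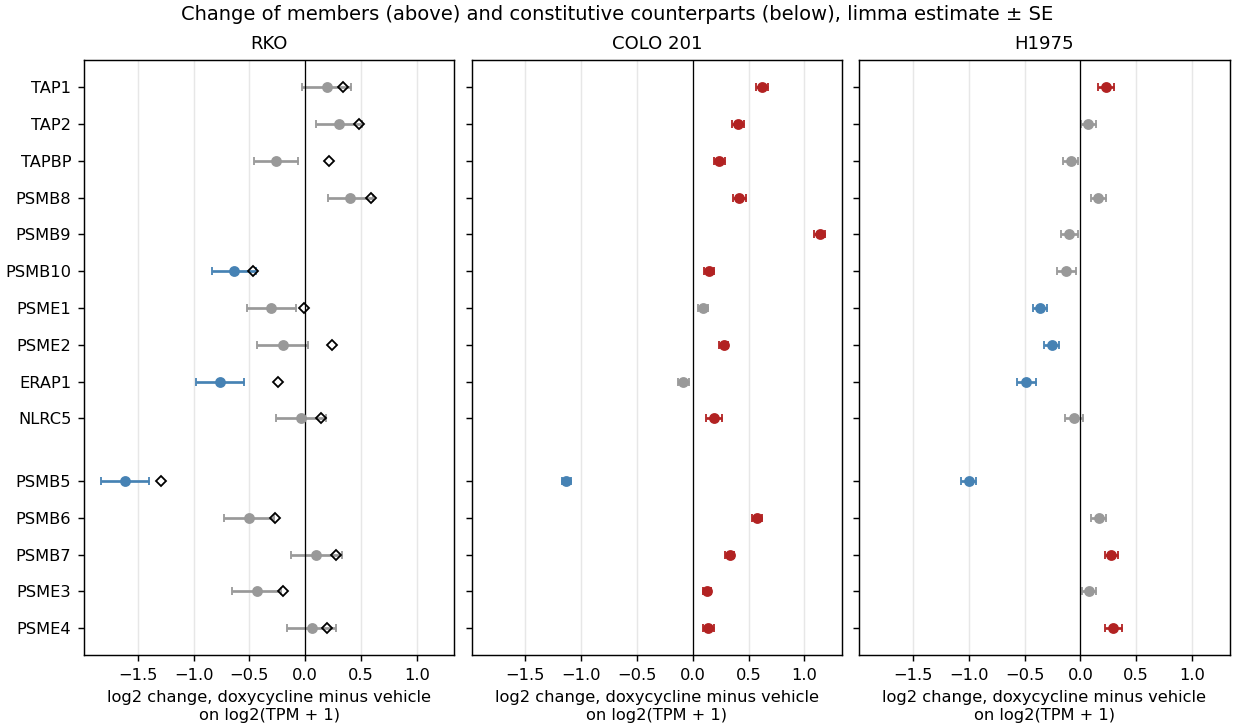
Change of the 10 members (above) and their 5 constitutive counterparts (below) as limma estimates with SE, on the log2(TPM + 1) scale, doxycycline minus vehicle, 1 panel per line on a shared axis. Red and blue points passed the test as higher and lower, grey points did not, and open diamonds in RKO are the values after rescaling without vehicle column 1. PSMB5 lies at -1.0 or lower in all 3 panels, and PSMB9 reaches 1.14 in COLO 201.

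PSMB9 (beta-1i, the caspase-like position of the immunoproteasome) gave the largest member change. It stood at 45.4, 43.8 and 48.6 TPM with doxycycline in COLO 201, against 20.8, 20.4 and 19.7 TPM with vehicle. Every doxycycline column was above every vehicle column, and the change was 1.14 ± 0.05 (SE, adjusted p = 4.2e-09), or 1.01 after rescaling (adjusted p = 3.9e-07). In H1975 it was 51.9, 63.0 and 54.8 TPM with doxycycline and 61.1, 61.1 and 59.2 TPM with vehicle. These arms overlapped, with a change of -0.10 ± 0.08 (adjusted p = 0.33). In RKO it was 0.479, 0.780 and 0.681 TPM with doxycycline and 0.481, 0.675 and 0.707 TPM with vehicle, with overlapping arms.

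PSMB8 (beta-5i) replaces the chymotrypsin-like subunit PSMB5. In COLO 201 it was 61.9, 52.2 and 58.0 TPM with doxycycline and 41.4, 43.4 and 42.9 TPM with vehicle, and it rose by 0.42 ± 0.06 (adjusted p = 4.6e-05). H1975 had 125, 123 and 117 TPM with doxycycline and 105, 111 and 110 TPM with vehicle. These arms did not overlap, but the change of 0.16 ± 0.06 had an adjusted p of 0.055. In RKO it was 2.10, 2.92 and 2.42 TPM with doxycycline and 1.55, 1.76 and 1.55 TPM with vehicle, again without overlap. The RKO change was 0.40 ± 0.20 (adjusted p = 0.15) as deposited, 0.60 after rescaling (adjusted p = 0.0024) and 0.59 with vehicle column 1 also left out (adjusted p = 4.4e-06).

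PSMB10 (beta-2i, the trypsin-like position) replaces PSMB7. In COLO 201 it was 47.5, 46.7 and 47.3 TPM with doxycycline and 41.4, 40.9 and 45.6 TPM with vehicle. That change of 0.14 ± 0.05 passed the test (adjusted p = 0.019) and was 0.01 after rescaling (adjusted p = 0.83). It lost its call without doxycycline replicate 1 (adjusted p = 0.056), vehicle replicate 1 (0.085) or vehicle replicate 2 (0.083). In H1975 the arms overlapped, at 18.3, 21.7 and 20.5 TPM with doxycycline and 21.8, 20.4 and 24.1 TPM with vehicle, with a change of -0.13 ± 0.08 (adjusted p = 0.25). In RKO it was 6.51, 9.33 and 6.75 TPM with doxycycline and 10.1, 12.8 and 13.7 TPM with vehicle. It fell by 0.63 ± 0.20 there (adjusted p = 0.024), with a change of -0.36 after rescaling (adjusted p = 0.077) and -0.47 with vehicle column 1 also left out (adjusted p = 0.00089). The RKO call was lost without doxycycline replicate 1 (adjusted p = 0.15), doxycycline replicate 3 (0.18), vehicle replicate 2 (0.073) or vehicle replicate 3 (0.11).

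PSMB5, the constitutive subunit that PSMB8 replaces, was lower in all 3 lines. In RKO it stood at 14.4, 19.5 and 16.9 TPM with doxycycline and 55.0, 57.6 and 48.7 TPM with vehicle, a change of -1.62 ± 0.21 (adjusted p = 6.6e-06). In COLO 201 it was 35.0, 33.1 and 34.5 TPM with doxycycline and 76.1, 77.2 and 75.3 TPM with vehicle, a change of -1.13 ± 0.04 (adjusted p = 7.8e-10). H1975 had 71.1, 69.8 and 67.6 TPM with doxycycline and 139, 136 and 145 TPM with vehicle, a change of -1.0 ± 0.06 (adjusted p = 6.9e-08). The arms were far apart in each line, and the change stayed between -1.72 and -0.96 under every alternative run. After rescaling it was -1.33, -1.26 and -1.04 in these lines. When vehicle column 1 was left out, the RKO change was -1.60, or -1.29 with rescaling (adjusted p = 2.3e-09 and 2.3e-08).

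The other constitutive catalytic subunits were higher in COLO 201, and PSMB7 also in H1975. PSMB6, which PSMB9 replaces, averaged 456 ± 26.7 TPM with doxycycline and 305 ± 2.67 TPM with vehicle in COLO 201, and rose by 0.58 ± 0.05 (adjusted p = 5.0e-07). Its change was 0.16 ± 0.07 in H1975 (adjusted p = 0.067) and -0.50 ± 0.23 in RKO (adjusted p = 0.11), where doxycycline columns lay below vehicle columns. With vehicle column 1 left out, the RKO change of PSMB6 was -0.59 (adjusted p = 0.067), or -0.27 with rescaling (adjusted p = 0.00093). PSMB7, which PSMB10 replaces, rose by 0.33 ± 0.04 in COLO 201 and by 0.28 ± 0.06 in H1975 (adjusted p = 1.4e-05 and 0.0029), and its change in RKO was 0.10 ± 0.23 (adjusted p = 0.79). Without vehicle column 1 this was -0.05 (adjusted p = 0.90), or 0.27 with rescaling (adjusted p = 0.0033). Of the 16 other subunits and assembly factors of the constitutive core, 12 were higher and 0 lower in COLO 201, with a median change of 0.24. PSMB4 led them at 485 ± 19.2 TPM with doxycycline and 320 ± 8.91 TPM with vehicle. In H1975, 4 were higher and 0 lower (median 0.13), and in RKO 0 were higher and 3 lower (median -0.54). PSMA6, PSMA7 and PSMG3 had opposite calls between lines, lower in RKO. After rescaling 8 were higher and 1 lower in COLO 201 (median 0.10), 3 and 0 in H1975 (median 0.09), and 1 and 2 in RKO (median -0.25). When vehicle column 1 was left out, the RKO counts were 0 higher and 4 lower (median -0.51), PSMA7 losing its call (adjusted p = 0.052), and with rescaling 1 higher and 10 lower (median -0.20). Counts of this and later lists stand beside the shares of all tested genes. These were 45.9% higher and 15.0% lower in COLO 201, 23.9% and 14.6% in H1975, and 2.09% and 16.1% in RKO. After rescaling they were 27.3% and 29.7%, 21.2% and 18.5%, and 13.8% and 14.0%. Without vehicle column 1 RKO had 2.10% and 18.2%, or 29.1% and 29.8% with rescaling.

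A ratio of 2 subunits within a column does not depend on the scaling of the column. PSMB8 over PSMB5 was 0.146, 0.150 and 0.144 with doxycycline in RKO, against 0.0281, 0.0305 and 0.0318 with vehicle, a 4.86-fold higher mean. In COLO 201 it was 1.77, 1.58 and 1.68 with doxycycline and 0.544, 0.563 and 0.569 with vehicle, 3.00-fold higher. In H1975 it was 1.75, 1.77 and 1.73 with doxycycline and 0.756, 0.815 and 0.754 with vehicle, 2.26-fold higher. The transcript of the immunoproteasome subunit was thus the more abundant of the pair with doxycycline and the less abundant with vehicle, per transcript length, in COLO 201 and H1975, and the less abundant in both arms of RKO. PSMB9 over PSMB6 was higher with doxycycline in RKO (0.0116 against 0.00785) and COLO 201 (0.101 against 0.0666), and lower in H1975 (0.206 against 0.247). In RKO PSMB9 itself was below 1 TPM with overlapping arms (0.647 against 0.621 TPM), while PSMB6 averaged 55.5 against 78.8 TPM. PSMB10 over PSMB7 was lower with doxycycline in all 3 lines, at 0.0284 against 0.0497 in RKO, 0.160 against 0.181 in COLO 201 and 0.0568 against 0.0756 in H1975. None of these 9 comparisons overlapped between arms. Single genes without overlap were also common, 48.5% higher and 16.6% lower in COLO 201, 30.7% and 18.4% in H1975, and 3.90% and 32.4% in RKO. No such share was computed for ratios of other gene pairs. With 3 against 3 columns the exact two-sided permutation test cannot go below p = 0.1, which each of the 9 reached, and the adjusted p over the 12 ratios tested was 0.12.

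**Figure D4:**
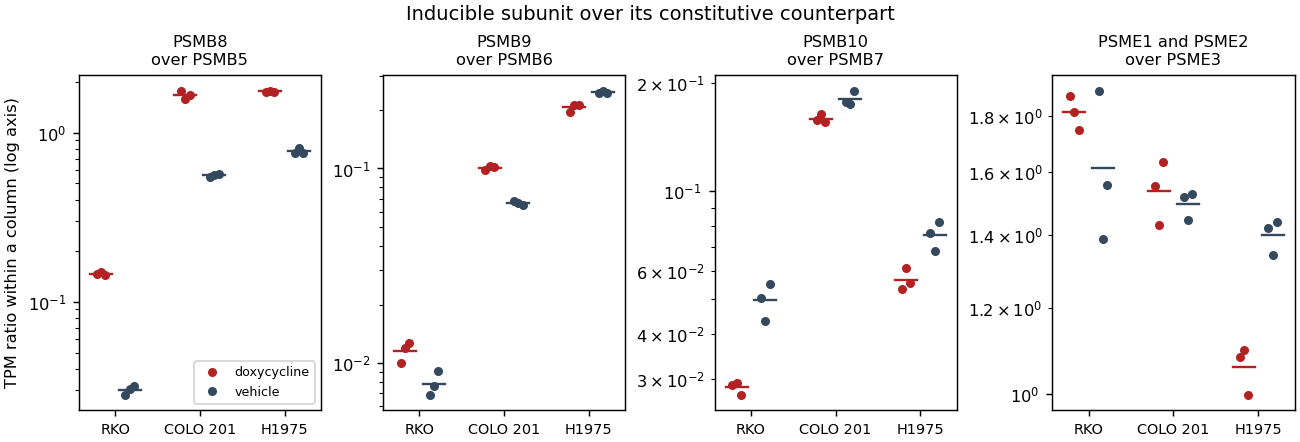
TPM ratio of an inducible subunit to its constitutive counterpart within each column (log axes), doxycycline left in red and vehicle right in dark blue, with bars at the arm means. In the fourth panel the ratio is the mean of PSME1 and PSME2 over PSME3. PSMB8 over PSMB5 is higher with doxycycline in every line, 0.146 against 0.0302 in RKO, 1.68 against 0.559 in COLO 201 and 1.75 against 0.775 in H1975, and PSMB10 over PSMB7 is lower in every line.

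PSME1 and PSME2 encode the alpha and beta subunits of PA28. In H1975 both fell. PSME1 was 196, 201 and 185 TPM with doxycycline and 244, 252 and 251 TPM with vehicle, a change of -0.36 ± 0.06 (adjusted p = 0.00054). PSME2 was 115, 111 and 107 TPM with doxycycline and 129, 130 and 139 TPM with vehicle, a change of -0.26 ± 0.07 (adjusted p = 0.0070). In COLO 201 PSME2 was 187, 175 and 193 TPM with doxycycline and 155, 148 and 154 TPM with vehicle, and it rose by 0.28 ± 0.04 (adjusted p = 0.00015), or 0.14 after rescaling (adjusted p = 0.044). PSME1 there was 253, 226 and 253 TPM with doxycycline and 228, 229 and 229 TPM with vehicle. The lowest doxycycline column lay below all vehicle columns, and the change of 0.09 ± 0.05 did not pass the test (adjusted p = 0.10). In RKO PSME1 was 60.6, 77.4 and 66.1 TPM with doxycycline and 81.2, 88.3 and 82.2 TPM with vehicle (adjusted p = 0.34), without overlap. PSME2 was 50.1, 69.6 and 56.4 TPM with doxycycline and 80.8, 65.8 and 56.7 TPM with vehicle (adjusted p = 0.55). The changes in RKO were -0.30 ± 0.22 for PSME1 and -0.20 ± 0.23 for PSME2, and after rescaling -0.01 and 0.09. With vehicle column 1 left out, they were -0.33 for PSME1 and -0.07 for PSME2 (adjusted p = 0.34 and 0.86), and with rescaling -0.01 and 0.24 (adjusted p = 0.89 and 0.0016).

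PSME3 encodes PA28-gamma, the nuclear activator that interferon does not induce, and PSME4 another activator, PA200. PSME3 rose by 0.13 ± 0.04 in COLO 201 (adjusted p = 0.0089), with a change of -0.0016 after rescaling, and its changes were 0.08 ± 0.06 in H1975 (adjusted p = 0.36) and -0.44 ± 0.22 in RKO (adjusted p = 0.17). PSME4 rose by 0.30 ± 0.08 in H1975 (adjusted p = 0.0095) and by 0.14 ± 0.05 in COLO 201 (adjusted p = 0.032), where the change was 0.01 after rescaling. In RKO its change was 0.06 ± 0.22 (adjusted p = 0.87). Without vehicle column 1 the RKO changes were -0.51 for PSME3 and -0.11 for PSME4 (adjusted p = 0.12 and 0.77), and with rescaling -0.20 and 0.20 (adjusted p = 0.0066 and 0.0067). The mean of PSME1 and PSME2 over PSME3 was 1.08, 1.10 and 0.998 with doxycycline in H1975 and 1.42, 1.34 and 1.44 with vehicle (exact permutation p = 0.1). The arms of this ratio overlapped in COLO 201 (1.43 to 1.63 with doxycycline, 1.44 to 1.53 with vehicle, exact permutation p = 0.5) and in RKO (1.75 to 1.88 with doxycycline, 1.39 to 1.90 with vehicle, exact permutation p = 0.4).

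TAP1 and TAP2, which pair to form the peptide pump, were both higher in COLO 201. TAP1 was 17.4, 16.3 and 17.9 TPM with doxycycline and 10.7, 11.0 and 10.8 TPM with vehicle, a rise of 0.62 ± 0.05 (adjusted p = 9.6e-07). TAP2 was 10.3, 10.2 and 10.4 TPM with doxycycline and 7.51, 7.39 and 7.67 TPM with vehicle, a rise of 0.41 ± 0.05 (adjusted p = 3.6e-05). After rescaling the changes were 0.50 for TAP1 and 0.29 for TAP2 (adjusted p = 2.8e-05 and 0.00068). In H1975 TAP1 was 33.0, 31.6 and 29.6 TPM with doxycycline and 26.5, 26.0 and 27.2 TPM with vehicle, a rise of 0.23 ± 0.07 (adjusted p = 0.019). That call was lost without doxycycline replicate 1 (adjusted p = 0.13), vehicle replicate 1 (0.057) or vehicle replicate 2 (0.051). TAP2 in H1975 was 36.0, 35.9 and 35.6 TPM with doxycycline and 32.3, 35.1 and 34.8 TPM with vehicle. Those arms did not overlap, yet the change of 0.07 ± 0.07 did not pass the test (adjusted p = 0.43).

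Both pump genes were near 1 to 2 TPM in RKO. TAP1 was 1.24, 1.73 and 1.45 TPM with doxycycline and 1.07, 1.26 and 1.13 TPM with vehicle, with overlap between arms, and TAP2 was 1.68, 2.39 and 2.02 TPM with doxycycline and 1.40, 1.55 and 1.41 TPM with vehicle, without overlap. The changes as deposited were 0.19 ± 0.22 for TAP1 (adjusted p = 0.55) and 0.30 ± 0.21 for TAP2 (adjusted p = 0.31). After rescaling they were 0.36 and 0.49 (adjusted p = 0.021 and 0.0054), and with vehicle column 1 also left out 0.34 and 0.48 (adjusted p = 0.00027 and 2.3e-05). RKO calls of these genes thus depended on the scaling of the columns.

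TAPBP rose by 0.24 ± 0.05 in COLO 201 (adjusted p = 0.0013), at 70.1, 79.3 and 70.6 TPM with doxycycline and 60.7, 63.1 and 62.0 TPM with vehicle. After rescaling the change was 0.11 (adjusted p = 0.060). H1975 had 64.0, 70.4 and 63.4 TPM with doxycycline and 67.5, 71.3 and 71.2 TPM with vehicle, with overlap and a change of -0.09 ± 0.07 (adjusted p = 0.33). In RKO it was 3.74, 5.23 and 4.90 TPM with doxycycline and 8.06, 5.18 and 4.37 TPM with vehicle. The highest of these was vehicle column 1, the change was -0.26 ± 0.20 (adjusted p = 0.35), and it was 0.22 after rescaling without that column (adjusted p = 0.0076).

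ERAP1 was the member with the lower doxycycline arm in every line. In H1975 it was 6.27, 6.16 and 6.95 TPM with doxycycline and 8.65, 10.2 and 9.51 TPM with vehicle, a fall of 0.48 ± 0.08 on the log2 scale (adjusted p = 0.00054). In RKO it was 1.72, 2.46 and 2.10 TPM with doxycycline and 6.78, 3.58 and 2.98 TPM with vehicle, a change of -0.76 ± 0.21 (adjusted p = 0.014). After rescaling the change was -0.54 and the call was lost (adjusted p = 0.16). Vehicle column 1 was again the highest, and without it the change was -0.47 (adjusted p = 0.042), or -0.24 with rescaling (adjusted p = 0.0023). The RKO call was lost without doxycycline replicate 1 (adjusted p = 0.18). In COLO 201 ERAP1 was 24.7, 25.5 and 23.4 TPM with doxycycline and 26.6, 26.0 and 25.6 TPM with vehicle. These arms did not overlap, the change was -0.08 ± 0.05 (adjusted p = 0.15), and after rescaling it was -0.21 (adjusted p = 0.0011).

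NLRC5 acts on class I promoters together with the RFX factors. In COLO 201 it was 2.60, 2.56 and 2.52 TPM with doxycycline and 2.02, 2.10 and 2.27 TPM with vehicle, a rise of 0.19 ± 0.07 (adjusted p = 0.035). After rescaling the change was 0.09 (adjusted p = 0.23), and the call was also lost without any 1 of 5 of the 6 columns (adjusted p between 0.051 and 0.12). H1975 had 12.5, 13.3 and 11.4 TPM with doxycycline and 12.6, 12.4 and 13.9 TPM with vehicle (adjusted p = 0.61). In RKO it was 1.03, 1.25 and 1.29 TPM with doxycycline and 1.25, 1.26 and 1.22 TPM with vehicle (adjusted p = 0.92), and without vehicle column 1 the change was -0.03, or 0.14 with rescaling (adjusted p = 0.88 and 0.095). The arms overlapped in both of these lines.

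Several members share genomic sequence with other genes, and the sources used here do not say whether reads were counted by strand. On chromosome 6 (GRCh38, GENCODE 29) TAP2 lies at chr6:32821833-32838780, PSMB8 at chr6:32840717-32844703, TAP1 at chr6:32845209-32853978 and TAPBP at chr6:33299694-33314387, all on the minus strand. PSMB9, on the plus strand at chr6:32844136-32859585, overlaps TAP1 and PSMB8 by gene span in the annotation. Their values could share reads under unstranded counting where exons overlap too, which was not checked. ERAP1 (chr5:96760810-96808100, minus) overlaps CAST. PSME1 (chr14:24136158-24138967, plus) overlaps EMC9, and PSME2 (chr14:24143362-24147570, minus) overlaps RNF31 and has 2 named pseudogenes. NLRC5 (chr16:56989485-57083531, plus) and PSMB10 (chr16:67934502-67937087, minus) overlap only genes with clone-based names. Values of the overlapping genes are uncertain to that extent.

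Class I heavy chains, the partners of the loading machinery, were called in the same direction wherever they were called. In COLO 201 all 6 tested genes of this list (heavy chains and B2M) were higher, against 45.9% of all tested genes. Their median was 0.43, and 5 were higher after rescaling, against 27.3%. HLA-B averaged 87.3 ± 0.82 TPM with doxycycline and 38.2 ± 2.82 TPM with vehicle, a rise of 1.17 ± 0.05 (adjusted p = 4.3e-09), close in size to that of PSMB9. HLA-C rose by 0.57 ± 0.04, HLA-F by 0.66 ± 0.08 and B2M, the light chain, by 0.29 ± 0.04 (adjusted p at most 3.8e-05). In RKO 1 of 5 was higher (median 0.32), HLA-B, at 6.44 ± 0.99 TPM with doxycycline and 3.05 ± 0.32 TPM with vehicle (0.87 ± 0.18, adjusted p = 0.0012), and 3 of 5 after rescaling. When vehicle column 1 was left out, HLA-B was again the 1 called, of 6 tested (median 0.22), and with rescaling 6 of 6 were higher (median 0.45). In H1975 1 of 6 was higher and the median was 0.11.

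Other chaperones and peptidases of the loading route moved in both directions. In RKO 0 of 11 were higher and 4 lower, with a median of -0.52 (-0.25 after rescaling, with 3 lower). These were the lectin chaperones CALR (-0.93 ± 0.24) and CANX (-0.71 ± 0.23), the cytosolic peptidase THOP1 (-0.61 ± 0.20) and the trimming peptidase ERAP2 (-0.58 ± 0.20). With vehicle column 1 left out, 0 of 10 were higher and 3 lower, CANX losing its call (adjusted p = 0.079), and with rescaling 2 were higher and 7 lower. In COLO 201 2 were higher and 3 lower, against 45.9% and 15.0% of all tested genes. The median was -0.0045, and 6 were lower after rescaling, against 29.7%. The peptide editor TAPBPL rose by 0.50 ± 0.06 and the peptidase BLMH by 0.33 ± 0.04. CALR (-0.10 ± 0.04) and PDIA3 (-0.11 ± 0.04) fell slightly. In H1975 3 were higher and 3 lower. THOP1 rose by 0.48 ± 0.07, opposite to RKO, and ERAP2 fell by 0.41 ± 0.08, as its neighbour ERAP1 did.

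Among 16 regulators of the pathway, 2 were higher and 4 lower of 14 tested in H1975. IRF9 averaged 42.0 ± 3.23 TPM with doxycycline and 123 ± 5.14 TPM with vehicle (-1.53 ± 0.07), and STAT2 changed by -0.37 ± 0.07 (adjusted p at most 0.00082). NFKB1 rose there by 0.35 ± 0.07. In COLO 201 9 were higher and 4 lower of 15, against 45.9% and 15.0% of all tested genes. After rescaling 4 were higher and 6 lower, against 27.3% and 29.7%. The class I promoter factors RFX5 (0.41 ± 0.05) and RFXANK (0.38 ± 0.05) rose, and IRF8 (-0.74 ± 0.05) and IRF9 (-0.43 ± 0.06) fell. IRF1, a direct activator of TAP1 and PSMB9 in textbook accounts, rose by 0.26 ± 0.06 in COLO 201 and fell in H1975 (-0.35 ± 0.08) and RKO (-0.86 ± 0.25). RFXANK (-0.65 ± 0.20) was the other regulator called lower in RKO, where 0 of 14 were higher and 2 lower, and 1 lower after rescaling. IRF1 lost its RKO call after rescaling (adjusted p = 0.17). Without vehicle column 1, IRF1 was at -0.48 (adjusted p = 0.014), RFXANK lost its call (adjusted p = 0.061) and 0 regulators were higher and 2 lower, or 4 and 5 with rescaling. STAT2 had opposite calls too, at 0.13 ± 0.05 in COLO 201.

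IFNGR1, the ligand-binding chain of the interferon-gamma receptor, fell in all 3 lines. It averaged 2.43 ± 0.56 TPM with doxycycline and 5.36 ± 1.09 TPM with vehicle in RKO (-0.89 ± 0.19), 69.7 ± 3.61 TPM with doxycycline and 124 ± 1.09 TPM with vehicle in COLO 201 (-0.82 ± 0.04), and 21.5 ± 1.17 TPM with doxycycline and 36.2 ± 2.04 TPM with vehicle in H1975 (-0.73 ± 0.07, adjusted p at most 0.0017 in the 3 lines). Of the receptors and feedback genes, RKO had 0 higher and 2 lower of 10 tested, COLO 201 had 3 higher and 3 lower of 10, and H1975 had 2 higher and 1 lower of 11. The shares of all tested genes were 2.09% and 16.1%, 45.9% and 15.0%, and 23.9% and 14.6% in this order. After rescaling the list counts were 0 and 1 for RKO, 0 and 5 for COLO 201, and 1 and 2 for H1975. The shares were then 13.8% and 14.0%, 27.3% and 29.7%, and 21.2% and 18.5%. When vehicle column 1 was left out, RKO had 0 and 1, or 2 and 5 with rescaling, and IFNGR1 was at -0.77 (adjusted p = 0.00098). JAK2 (-0.47 ± 0.07) and SOCS1 (-0.38 ± 0.09) fell and TYK2 (0.27 ± 0.06) rose in COLO 201. The feedback gene SOCS3 was lower in RKO (-0.77 ± 0.21) and higher in H1975 (0.22 ± 0.07), and it lost its RKO call without vehicle column 1 (-0.48, adjusted p = 0.065). None of the 7 interferon genes reached the minimum level in any line, and the highest single value was 0.369 TPM.

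Interferon-stimulated genes outside the antigen pathway fell together in H1975, where 0 of 23 were higher and 23 lower, with a median of -1.08, before and after rescaling (median -1.12). IFI6 averaged 140 ± 16.4 TPM with doxycycline and 1278 ± 20.4 TPM with vehicle (-3.19 ± 0.08), and XAF1 (-2.64 ± 0.08), MX1 (-2.30 ± 0.07) and IFIT1 (-2.14 ± 0.08) followed. The members in H1975 had a median of -0.09 beside it. In COLO 201, 6 of 20 were higher and 7 lower (median -0.06), against 45.9% and 15.0% of all tested genes. After rescaling 6 were higher and 12 lower in COLO 201, against 27.3% and 29.7%. There ISG15 (0.81 ± 0.06), UBE2L6 (0.69 ± 0.05) and IFI35 (0.52 ± 0.05) rose, all opposite to H1975, and OASL (-0.72 ± 0.07) fell. GBP2, IFIH1, IFI27 and OAS3 also had opposite calls between 2 lines. In RKO 1 of 15 was higher and 2 lower (median -0.38), and 3 and 2 after rescaling. IFI27 (0.72 ± 0.20) rose, and OAS3 (-0.87 ± 0.19) and IFITM1 (-1.39 ± 0.43) fell. IFITM1 in RKO averaged 0.402 ± 0.30 TPM with doxycycline and 4.82 ± 6.86 TPM with vehicle, so its vehicle values spread more widely than their mean. With vehicle column 1 left out, where 12 of the list reached the minimum level and IFITM1 did not, 0 were higher and 2 lower and the median turned to 0.05. IFI27 lost its call there (adjusted p = 0.093), and with rescaling 6 were higher and 2 lower (median 0.28).

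**Figure D5:**
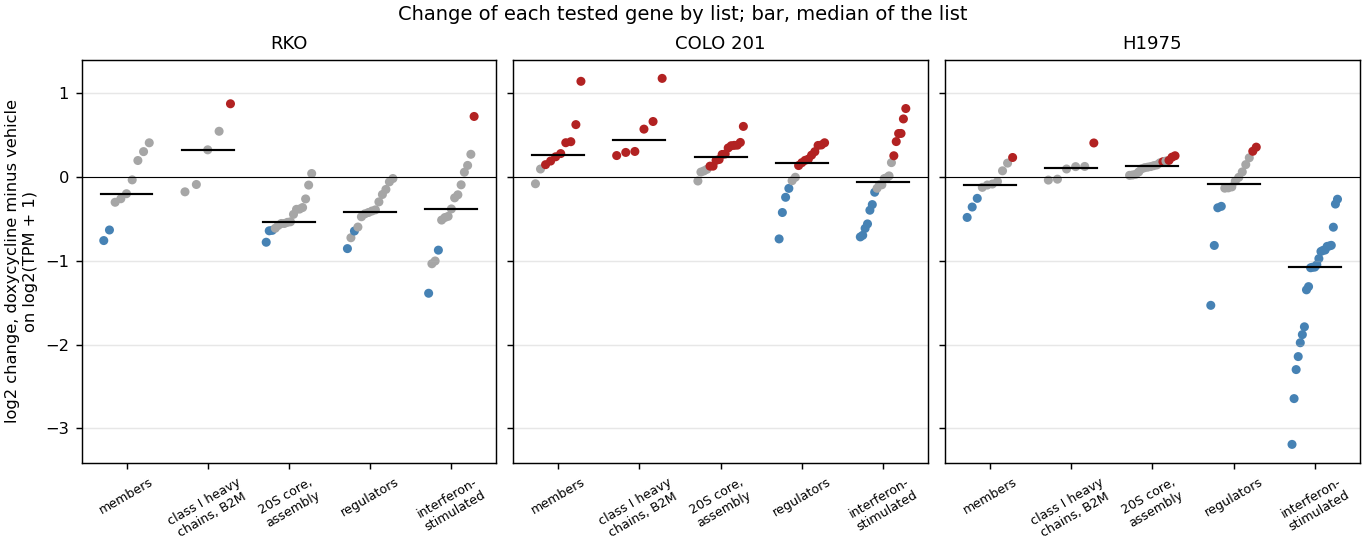
Change of each tested gene in 5 lists, as limma estimates on the log2(TPM + 1) scale, doxycycline minus vehicle, with bars at the list medians. Red and blue points passed the test as higher and lower. In H1975 all 23 interferon-stimulated genes lie below 0 (median -1.08) while the members lie near it (median -0.09), and in COLO 201 members and class I genes lie mostly above 0 (medians 0.26 and 0.43).

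Whether a change differed between lines was asked in a single limma fit of all 18 columns over 11999 genes. Differences are signed, the change of the first line named minus that of the second. Between COLO 201 and H1975 the change of 5 of 10 members differed, all with a positive difference, where 14.9% of genes differed. PSMB9 led with a difference of 1.24 ± 0.13 (adjusted p = 3.1e-06), and TAP1 (0.39 ± 0.11), TAP2 (0.33 ± 0.11), PSME1 (0.45 ± 0.12) and PSME2 (0.53 ± 0.17) also differed. With single columns left out, adjusted p reached 0.060 for TAP1, 0.11 for TAP2 and 0.11 for PSME2. Each of the 18 columns was left out in turn, and TAP2 and PSME2 each lost the call in 13 of these runs. TAP1 lost it in 6. After rescaling 5 differed, against 30.3% of genes, and without vehicle column 1 of RKO 6 did, against 26.3%. Fitted without RKO, all 10 differed by 0.24 to 1.24, where 41.5% of genes did. Between RKO and COLO 201, 6 members differed, against 44.9% of genes, each with a negative difference. PSMB9 (-1.12 ± 0.13) was among them, but it lay below 1 TPM in RKO and entered the fit through its level in the other lines. The others were PSMB10 (-0.78 ± 0.17), ERAP1 (-0.68 ± 0.24), PSME2 (-0.48 ± 0.17), TAP1 (-0.43 ± 0.11) and PSME1 (-0.40 ± 0.12). After rescaling 3 differed, against 36.7% of genes, PSMB9 (-0.88), TAP2 (0.20) and PSMB8 (0.31). Without vehicle column 1, 5 differed, against 54.2%, PSME2 losing its call (adjusted p = 0.065). Between RKO and H1975 1 member differed, PSMB10 (-0.51 ± 0.17), against 37.4% of genes, and after rescaling 4 did, against 33.5%, PSME1 (0.39), TAP2 (0.45), PSMB8 (0.48) and PSME2 (0.39). For PSME1 and PSME2 the positive difference goes with their fall in H1975. When vehicle column 1 was left out, PSMB10 was again the 1 called, against 48.3% of genes. The interferon-stimulated genes differed between COLO 201 and H1975 for 14 of 22, each with a positive difference, H1975 being the line where all of the list fell. The median difference of the 22 was 1.12. Among the 22, IFITM1, RSAD2 and GBP1 were below the minimum level in COLO 201 and entered the fit through the other lines. In COLO 201 they averaged 0.0496, 0.0731 and 1.00 TPM with doxycycline and 0.139, 0.0686 and 0.784 TPM with vehicle.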

How the data were processed

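Polyadenylated RNA (RNeasy Plus Mini, TruSeq Stranded mRNA) came from triplicate cultures, per the labels' protocols. STAR, DESeq2 and GRCh38 are named in the submitters' processing notes, without versions, and the quantifier and counting strand are not given in the sources used here. The authors deposited 1 table of TPM per cell line, each column summing to 1000000, so the absolute depth is unknown. All samples carry the same agent label, and the arm was read from the column headings.

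limma 3.58.1 in R 4.3.3 was run two-sided on log2(TPM + 1) with a variance trend, on genes whose TPM averaged 1 or more in a line, with Benjamini-Hochberg adjustment over all genes of a line, and the joint fit was adjusted over its own genes. Fold changes on this scale understate the change of low genes. The fit was tested on simulated data first. The p-values measure the spread between these columns. Ratios were tested with an exact permutation test (scipy 1.17.1). Promoters are RefSeq's (GRCh38.p14) and positions GENCODE 29.

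The members and lists were chosen with earlier results of these data known. Every member, the 5 counterparts and MUC1 are named, and of each other pathway list at most 4 called genes per line with the smallest adjusted p and any gene with opposite calls. Some genes under this rule are not reported here. Marker lists were leukocyte, erythroid, fibroblast and endothelial, mesenchymal, colon epithelial and lung epithelial genes. The alternatives changed the pseudocount (0.1 or 5), the minimum (none or 5 TPM) or the scaling, with rescaled columns, small noncoding or mitochondrially encoded genes removed, no trend, a replicate block and each column left out. Fitting COLO 201 and H1975 without RKO was chosen after seeing the data.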

Additional observations from a re-analysis of the deposited data

Results flagged for a closer look

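These results were picked out because the change with doxycycline differed between 2 lines in the joint limma fit, with p adjusted over 11999 genes. The joint fit pools the spread of all 3 lines, and RKO columns spread most.

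Between COLO 201 and H1975 the difference of changes was 1.24 for PSMB9 (adjusted p = 3.1e-06), 0.39 for TAP1 (adjusted p = 0.022), 0.33 for TAP2 (adjusted p = 0.049), 0.45 for PSME1 (adjusted p = 0.016) and 0.53 for PSME2 (adjusted p = 0.043). With a single column left out, adjusted p reached 0.060 for TAP1, 0.11 for TAP2 and 0.11 for PSME2.

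Between RKO and COLO 201 it was -1.12 for PSMB9, -0.78 for PSMB10, -0.68 for ERAP1, -0.48 for PSME2, -0.43 for TAP1 and -0.40 for PSME1. PSMB9 lay below 1 TPM in RKO, where log2(TPM + 1) compresses any change, and entered the fit through the other lines. After rescaling PSMB9 stayed past the threshold (-0.88) and the other 5 did not. Among the constitutive counterparts it was -1.08 for PSMB6, -0.57 for PSME3 and -0.48 for PSMB5. After rescaling, the PSMB6 difference was -0.65, and the PSMB5 (-0.07) and PSME3 (-0.14) differences were no longer past the threshold.

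Between RKO and H1975 it was -0.51 for PSMB10, -0.67 for PSMB6, -0.62 for PSMB5 and -0.51 for PSME3. After rescaling the PSMB10 value was -0.20 and not past the threshold. PSMB6, PSMB5 and PSME3 stayed past it, at -0.33, -0.29 and -0.18.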

How the results depend on the processing

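In RKO 0 members were higher and 2 lower. Rescaling or removing small noncoding RNA genes gave 3 higher and 0 lower in each case, and rescaling without vehicle column 1 gave 5 higher. A pseudocount of 5 or a minimum of 5 TPM gave 1 lower and no minimum gave 0. With a minimum of 5 TPM only 4 members were tested. Of all genes tested in RKO, 1276 of 10551 were lower with a pseudocount of 5 and 1313 of 6457 with that minimum. No minimum left 12 genes higher and 16 lower of 18329. The other pathway genes, 2 higher and 14 lower in RKO, became 8 higher with rescaling and with small noncoding RNA removed. They were 23 higher and 32 lower with rescaling without vehicle column 1, and 0 higher and 1 lower with no minimum. A minimum of 5 gave 1 higher and a pseudocount of 5 gave 8 lower. Calls over all genes moved too, from 220 higher and 1695 lower of 10551 as deposited. Rescaling gave 1453 and 1468 of 10517, and removing small noncoding RNA genes 1278 and 1571 of 12263. With rescaling and no vehicle column 1 there were 2995 and 3060 of 10279. A minimum of 5 TPM gave 174 higher of 6457. In COLO 201 rescaling turned 8 members higher and 0 lower into 5 and 1, and 42 pathway genes higher and 18 lower into 27 and 31. Removing mitochondrially encoded genes gave 1 member lower. Over all genes of COLO 201, 45.9% higher and 15.0% lower became 27.3% and 29.7% with rescaling. Without mitochondrially encoded genes 20.1% were lower. In H1975 no minimum gave 2 members higher in place of 1, beside 2399 of 16954 genes in place of 2959 of 12359. Members whose change differed between lines were 5 for COLO 201 and H1975, or 10 without RKO, 6 for RKO and COLO 201, or 3 rescaled, and 1 for RKO and H1975, or 4 rescaled. The shares of all genes were 14.9% or 41.5%, 44.9% or 36.7%, and 37.4% or 33.5% in this order. The causes were not tested, apart from the smaller number of genes or columns that some alternatives use.

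With each column left out in turn, members lower in RKO ran from 0 to 2, members higher from 6 to 8 in COLO 201 and from 0 to 2 in H1975. Pathway genes higher and lower ran from 1 to 2 and 3 to 24 in RKO, from 39 to 43 and 14 to 18 in COLO 201, and from 6 to 17 and 30 to 33 in H1975. Over all genes, higher and lower calls ran from 101 to 257 and 477 to 2302 in RKO, of 10296 to 10651 tested. COLO 201 had 4545 to 5619 and 1400 to 1964, of 11542 to 11589. H1975 had 1618 to 3324 and 1259 to 1986, of 12333 to 12381. Members differing ran from 2 to 6, from 4 to 7 and from 0 to 2 for the 3 pairs in the order above. Of all genes, 1319 to 3159, 4408 to 6966 and 3182 to 6282 then differed, of 11940 to 12049 tested. The PA28 ratio in COLO 201 ran from -0.0058 to 0.090 on the log2 scale.

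The correlation of same-numbered deviations ran from -0.42 to 0.29 and was above 0.1 for 5 of 9 pairs. It does not settle whether the column numbers pair the samples. With the number as replicate block 1 member was lower in RKO, where ERAP1 lost its call (adjusted p = 0.11), 0 members were higher in H1975, where TAP1 lost its call (adjusted p = 0.063), and 8 pathway genes were higher in H1975 in place of 14. Over all genes, the block took lower calls in RKO from 1695 to 2071 of 10551. Higher calls in H1975 went from 2959 to 2209 of 12359. PSMB6 and PSME3 gained calls as lower in RKO (adjusted p = 0.030 and 0.040), and the block changed no other call of a member or counterpart.

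Signs that turned were of changes short of the threshold in the fit as described, except PSME3 in COLO 201 and the PSME1 difference of RKO and COLO 201. In RKO they were PSME2 at 0.094 rescaled and 0.069 with small noncoding RNA removed, NLRC5 at 0.13 and 0.17 under these settings, and TAPBP, PSME2 and NLRC5 at 0.22, 0.24 and 0.14 when rescaled without vehicle column 1. Rescaled, PSME1 was -0.040 and PSME3 -0.0016 in COLO 201. Rescaled differences of RKO and COLO 201 were 0.20 for TAP2, 0.31 for PSMB8, 0.028 for PSME1 and 0.030 for NLRC5, and those of RKO and H1975 0.17 for TAP1 and 0.11 for TAPBP. With 1 column left out, the RKO change ran from -0.071 to 0.015 for NLRC5, from -0.047 to 0.23 for PSMB7 and from -0.11 to 0.22 for PSME4, and the PSMB8 difference of RKO and COLO 201 from -0.10 to 0.067. Differences of RKO and H1975 then ran from -0.11 to 0.033 for TAP1, from -0.33 to 0.042 for TAPBP, from -0.039 to 0.13 for PSME1, from -0.072 to 0.19 for PSME2, from -0.47 to 0.013 for ERAP1 and from -0.034 to 0.072 for NLRC5.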

Other observations

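Marker lists outside the comparisons above are given by their summed TPM, and some overlapped between arms. In COLO 201 the leukocyte list summed to 693 to 742 TPM with doxycycline and 1282 to 1290 TPM with vehicle, nearly all of it LYZ (592 to 624 TPM with doxycycline, 1217 to 1221 TPM with vehicle), a lysozyme that gut epithelial cells also make. In H1975 the sum was 285 to 336 TPM with doxycycline and 168 to 177 TPM with vehicle, mostly CD68. The erythroid list was at most 1.03 TPM with doxycycline and 7.37 TPM with vehicle in COLO 201, at most 0.204 TPM with overlapping arms in RKO and 0 in both arms of H1975. Fibroblast and endothelial markers summed to 17.2 to 20.9 TPM with doxycycline and 45.2 to 47.3 TPM with vehicle in H1975, and to 1.51 to 1.79 TPM with doxycycline and 0.744 to 0.80 TPM with vehicle in COLO 201. The mesenchymal list summed to 2621 to 2935 TPM with doxycycline and 3544 to 3847 TPM with vehicle in COLO 201, and to 2595 to 2820 TPM with doxycycline and 3398 to 3738 TPM with vehicle in H1975. A single gene of the list reached 3727 TPM in COLO 201, where VIM was at most 0.103 TPM. The highest single value was 2313 TPM in H1975, where VIM was 496 to 675 TPM. Colon epithelial markers summed to 53.5 to 75.9 TPM with doxycycline and 33.7 to 59.8 TPM with vehicle in RKO, and to 5612 to 5870 TPM with doxycycline and 5755 to 5792 TPM with vehicle in COLO 201, with overlap in both lines. Most of the COLO 201 sum was KRT8 (2144 to 2379 TPM), KRT18 (2314 to 2485 TPM) and EPCAM (814 to 946 TPM). The lung list holds these genes too and summed to 5454 to 5713 TPM with doxycycline and 5525 to 5564 TPM with vehicle in COLO 201. Lung epithelial markers summed to 3814 to 4067 TPM with doxycycline and 4287 to 4926 TPM with vehicle in H1975. Their part in the members' changes was not tested.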
